A study of Mus musculus with 24 samples.

Results

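The 10 genes described here encode secreted matrix proteins other than collagens: the glycoproteins Tnc, Thbs1, Thbs2, Sparc, Spp1 and Fn1 and the proteoglycans Vcan, Lum, Dcn and Bgn. They were taken by name from a liver RNA-seq table of 23972 genes, and each of the 10 had 1 row. The table holds 24 livers of female mice on a C57BL/6J background. LmnaADKO mice carry floxed Lmna alleles (Lmna fl/fl) and the Adipoq-Cre transgene, which deletes Lmna in adipocytes and marrow adipogenic progenitors and not in hepatocytes, and the controls carry the same floxed alleles without Cre. All groups were 12 to 14 weeks old at the start, were housed at 22°C and ate a 60% high-fat diet for 4 weeks before a retro-orbital injection of vehicle or of an AAV8 that encodes mouse FGF21, and livers were taken 8 weeks later. There were 7 vehicle-treated controls, 3 FGF21-treated controls, 6 vehicle-treated LmnaADKO mice and 8 FGF21-treated LmnaADKO mice. The labels name the treatment only as a rescue, and its reading as FGF21 comes from the study's methods. Animal numbers differ between libraries, so each library was taken as 1 mouse.

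The liver matrix is made mostly by stellate cells and fibroblasts, while hepatocytes secrete fibronectin into plasma. Matricellular proteins such as tenascin C, the thrombospondins, SPARC and osteopontin bind cell receptors, growth factors and other matrix proteins and have little structural role, and they are known for their appearance in injured tissue. Lumican, decorin and biglycan are small leucine-rich proteoglycans that bind collagen fibrils, and versican is a large proteoglycan that binds hyaluronan.

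Total counts lay between 19863304 and 21510054 per library. Lmna itself was measured at 15.7 to 22.1 CPM (counts scaled to library size) in vehicle-treated controls and 23.6 to 31.0 CPM in vehicle-treated LmnaADKO livers, and since the deletion is in adipocytes, this does not check the genotype. Fgf21 lay at 2.19 to 9.995 CPM in FGF21-treated and 4.63 to 10.6 CPM in vehicle-treated LmnaADKO livers, so its level did not set the treated livers apart. Of the adipocyte markers, 3 of 4 were at or under 3 counts in the LmnaADKO groups (the other was Cidea, which fatty livers express too), and hepatocyte markers summed to 82580 to 161400 CPM over all groups. In 3 libraries (FGF21-treated LmnaADKO 7, FGF21-treated control 3 and vehicle-treated control 3) levels fell with gene length, with slopes of -0.331, -0.289 and -0.154 log2 units per doubling of exon length over 9694 genes. The number of members called in each comparison was the same without these 3.

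The 10 genes lie on 9 chromosomes of GRCm38. Tnc is at chr4:63959785-64047015 on the minus strand and Thbs1 at chr2:118111876-118127133 on the plus strand. Thbs2 is at chr17:14665500-14694235 (minus), Sparc at chr11:55394500-55423183 (minus), Spp1 at chr5:104435118-104441050 (plus) and Fn1 at chr1:71585520-71653200 (minus). Vcan is at chr13:89655312-89742509 (minus) and Bgn at chrX:73483602-73495933 (plus). Dcn, at chr10:97479609-97518143, and Lum, at chr10:97565128-97572703, lie on the plus strand with 46984 bases between them. Vcan overlaps an antisense gene, Gm4117, whose mean level was 0.0532 to 0.134 CPM against 0.134 to 0.297 CPM for Vcan, and the strand setting of the counting is not given in the sources used here.

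RefSeq promoters (GRCm38.p6) were used for 6 of the 10 genes, all but Thbs1, Fn1, Lum and Dcn. The 250 bases upstream of the start are shown for Tnc, chr4:64047016-64047265 on the minus strand, and Spp1, chr5:104434861-104435110 on the plus strand, because these are the called genes of the first comparison below with a promoter in that table. They are read 5′ to 3′, with matches to the searched motifs in capitals.
Tnc: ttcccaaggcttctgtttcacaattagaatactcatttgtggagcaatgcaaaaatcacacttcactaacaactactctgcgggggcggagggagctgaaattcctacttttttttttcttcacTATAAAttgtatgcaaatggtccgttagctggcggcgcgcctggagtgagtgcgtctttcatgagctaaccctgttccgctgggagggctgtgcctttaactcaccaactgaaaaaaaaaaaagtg
Spp1: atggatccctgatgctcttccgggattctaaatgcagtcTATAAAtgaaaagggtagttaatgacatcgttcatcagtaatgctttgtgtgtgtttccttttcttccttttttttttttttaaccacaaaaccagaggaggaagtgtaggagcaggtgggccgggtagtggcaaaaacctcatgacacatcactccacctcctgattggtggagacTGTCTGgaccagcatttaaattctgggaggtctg
The capitals mark TATAAA in both sequences, 126 to 121 bases before the Tnc start and 211 to 206 bases before the Spp1 start, and in Spp1 also TGTCTG, the reverse complement of the SMAD element CAGACA, 34 to 29 bases before the start. The motifs were searched on both strands, and no match overlapped another. TATAAA occurred in 12.4% of 32807 promoters of this length and CAGACA in 17.1%. The AP-1 letters TGANTCA and the TEAD letters GGAATG, found in 6.75% and 12.6% of promoters, had no match in the 6 promoters. Of the genes that were not called, Thbs2 held TATAAA once and CAGACA in 2 places, Sparc held CAGACA once, and Vcan and Bgn held no match.

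Divided by exon length, Fn1 was the most abundant in vehicle-treated controls, at 133 ± 26.5 CPM per kb (SD, n = 7). Dcn (23.6 ± 1.90), Bgn (21.5 ± 2.50), Sparc (21.1 ± 4.41) and Spp1 (19.9 ± 4.42) followed within each other's spread. Lum stood at 2.97 ± 0.837 and Thbs2 at 0.596 ± 0.125 CPM per kb. Thbs1 (0.185 ± 0.0582) and Tnc (0.168 ± 0.0339) were alike within their spread, and Vcan was lowest at 0.0114 ± 0.00788 CPM per kb. The Vcan counts were 0 to 20 per library and 3 or fewer in 11 of 24 libraries, and Vcan was the only 1 of the 10 with a mean log2 CPM below 0 and removed by edgeR's filter on low counts.

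The first question was how these genes differ between livers of lipodystrophic and control mice given vehicle. Tnc, Thbs1, Spp1 and Lum were higher in LmnaADKO livers, by 3.46-, 4.04-, 3.55- and 2.06-fold, and none of the 10 was called lower. A gene was called with a Benjamini-Hochberg adjusted p under 0.05 over all genes in edgeR's quasi-likelihood test and a fold change above 1.5. By this rule 4 of 10 were called higher, against a background of 5.12% of all genes (8.48% in either direction, 3.36% lower). By the adjusted p alone 7 of 10 passed, against 15.1%. Of the 10, 9 were higher and 1 lower, with a median log2 fold change of 0.64 against 0.00265 over all genes. The 10 genes were chosen with earlier results of these data known, so these shares are not independent of the choice of genes. In bulk liver, a change in the number of cells of a type and a change in RNA per cell cannot be told apart.

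Tnc encodes tenascin C, a hexameric glycoprotein of developing and wounded tissue. Its level was 0.995 to 1.70 CPM (median 1.27) in vehicle-treated controls and 2.87 to 6.20 CPM (median 4.45) in vehicle-treated LmnaADKO livers. All 6 LmnaADKO livers lay above all 7 controls, on 18 to 35 and 59 to 145 counts per library. The log2 fold change was 1.79 ± 0.19 (SE, adjusted p = 2.17e-07 by edgeR), and Tnc ranked 28 of 23972 genes by p.

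Thbs1, thrombospondin 1, binds CD36 and CD47 and releases TGF-β from its latent form. It lay between 0.608 and 1.75 CPM (median 1.13) in vehicle-treated controls and between 3.20 and 6.85 CPM (median 3.64) in LmnaADKO livers, again without overlap. Its log2 fold change was 2.01 ± 0.33 (SE, edgeR adjusted p = 0.00015). Thbs2, its close paralog, was level: 2.54 to 5.29 CPM against 3.42 to 6.18 CPM, with a log2 fold change of 0.06 and a 95% interval of -0.33 to 0.45. The difference between the changes of these paralogs was not tested.

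Spp1 encodes osteopontin, a phosphorylated integrin ligand made by macrophages, bile duct cells and activated stellate cells. Vehicle-treated controls ranged from 23.3 to 45.3 CPM (median 32.6) and LmnaADKO livers from 78.7 to 186 CPM (median 107), without overlap. Its log2 fold change was 1.83 ± 0.31 (SE, edgeR adjusted p = 0.000302). Lum, a keratan sulfate proteoglycan of collagen fibrils, went from 5.64 to 11.5 CPM (median 6.64) to 10.9 to 22.5 CPM (median 13.9), a log2 fold change of 1.04 ± 0.21 (SE, edgeR adjusted p = 0.00118). The groups overlapped for Lum, since 1 control, number 4, stood at 11.5 CPM and 5 of 6 LmnaADKO livers exceeded it. Groups did not overlap, with LmnaADKO higher, for 4 of 10 genes (Tnc, Thbs1, Spp1 and Dcn), against 4.22% of all genes.

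The remaining 6 changed less. Dcn, which binds collagen and TGF-β, was 116.5 to 148 CPM in controls and 171 to 226 CPM in LmnaADKO livers. This difference passed the adjusted p (0.000878 by edgeR) but its fold of 1.37 was under the limit. Sparc, a collagen-binding glycoprotein, likewise had a log2 fold change of 0.44 ± 0.15 (SE, edgeR adjusted p = 0.0471, fold 1.36), with 4 of 6 LmnaADKO livers above all controls. Without the 3 libraries named above its adjusted p was 0.0817. Bgn lay at 121 to 164 CPM and 122 to 190 CPM and differed by 0.24 on the log2 scale (95% interval -0.05 to 0.53) and Vcan by 0.83 (95% interval -0.33 to 1.99).

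Fn1, fibronectin, was the only 1 of the 10 with a lower level in LmnaADKO livers. It ranged from 1109 to 1979 CPM (median 1551) in vehicle-treated controls and from 1019 to 1206 CPM (median 1107) in LmnaADKO livers, where 3 of 6 lay below all controls. The log2 fold change was -0.48 ± 0.15 (SE, edgeR adjusted p = 0.0247), a size that does not reach 1.5-fold. Of the summed level of the 10 genes per kb, Fn1 made up 59.1 ± 6.38% in vehicle-treated controls and 37.0 ± 5.18% in vehicle-treated LmnaADKO livers (SD, n = 7 and 6). The summed level itself was 222 ± 22.5 and 260 ± 30.8 CPM per kb. With FGF21 the share of Fn1 was 57.3 ± 8.41% in controls and 46.8 ± 8.90% in LmnaADKO livers (SD, n = 3 and 8).

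**Figure D1:**
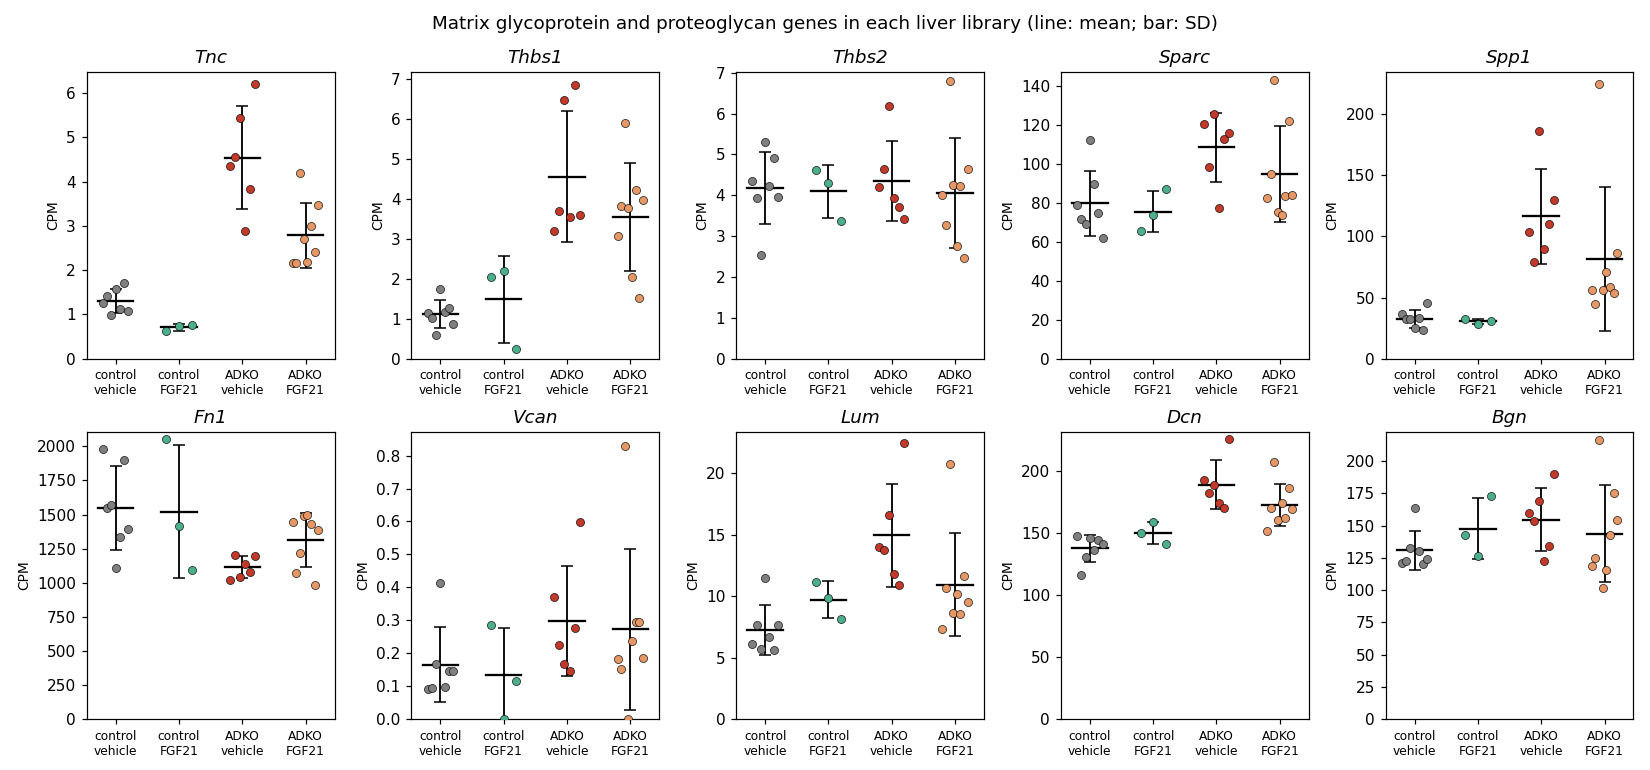
Level in CPM (linear axes from 0) of each of the 10 genes in every liver, by group, with the mean as a line and the SD as a bar. Tnc, Thbs1, Spp1 and Dcn in vehicle-treated LmnaADKO livers lie above all vehicle-treated controls, and Fn1 is the one gene whose LmnaADKO livers lie low.

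Animal numbers in the labels have 3 digits in 6 of the 7 vehicle-treated controls and 4 digits in 5 of the 6 vehicle-treated LmnaADKO livers, so any difference between the number series is largely shared with genotype. With the number of digits as a covariate, the log2 fold changes were 1.83 for Tnc, 2.19 for Thbs1, 1.88 for Spp1 and 1.10 for Lum, all still called by edgeR (adjusted p = 9.34e-06, 0.00117, 0.00229 and 0.00648). Fn1 stayed at -0.48 but its adjusted p was 0.0947, and Sparc reached 0.59 and was called (adjusted p = 0.0381).

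The second question was whether the genotypes also differ under FGF21. Tnc was called higher again, and it was the only 1 of the 10 called, against a background of 2.88% of all genes (1.61% higher). The 3 FGF21-treated controls had 0.618, 0.749 and 0.757 CPM of Tnc and the 8 FGF21-treated LmnaADKO livers 2.16 to 4.19 CPM (median 2.56), a log2 fold change of 1.98 ± 0.27 (SE, edgeR adjusted p = 6.42e-05) without overlap. Among 4-digit animal numbers alone, which all 3 treated controls carry, it was 1.95 and called (edgeR adjusted p = 0.00307). Spp1 did not overlap either: 28.6, 30.6 and 32.5 CPM against 44.9 to 224 CPM (median 57.5). Its log2 fold change of 1.41 ± 0.41 (SE) missed the threshold, with an edgeR adjusted p of 0.0526, and it was called by DESeq2 (adjusted p = 0.00226), after edgeR's filter on low counts (0.0241), among 4-digit animal numbers alone (0.0351), and without FGF21-treated LmnaADKO liver 2, 3, 4 or 7 (0.0141 to 0.0478). The groups did not overlap, with LmnaADKO higher, for 2 of 10 genes, against 3.14% of all genes.

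Thbs1 was at 2.04, 2.20 and 0.233 CPM in the FGF21-treated controls, a 9.43-fold range of which the lowest is the library with a negative length slope, and at 1.53 to 5.89 CPM in FGF21-treated LmnaADKO livers. Its log2 fold change was 1.23 ± 0.43 (SE, edgeR adjusted p = 0.111), and it was called by DESeq2 (adjusted p = 0.0312), with the length slope as a covariate (0.0206) and without FGF21-treated LmnaADKO liver 7 (0.0445). Lum differed by 0.17 (95% interval -0.37 to 0.70) and Dcn by 0.20 (95% interval -0.03 to 0.43). Among the FGF21-treated controls, Lum stood at 11.2, 9.84 and 8.15 CPM, above the median of the vehicle-treated controls in all 3. Of the other 5, Thbs2 (-0.01), Sparc (0.33), Fn1 (-0.21), Vcan (0.99) and Bgn (-0.04) were not called either.

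The AAV that encodes FGF21 was compared with vehicle within each genotype. The study's vehicle was a buffer without virus, so effects of FGF21 and of the virus cannot be told apart. In controls no member was called by edgeR or DESeq2, against 0.0542% of all genes by edgeR, and 1 of 10 had an unadjusted p under 0.05, against 6.16% of all genes. That gene was Tnc, with all 3 treated controls below all 7 vehicle-treated controls (against 1.28% of all genes separated in that direction), a log2 fold change of -0.89 ± 0.28 (SE) and an edgeR adjusted p of 0.479. Its counts there were 13 to 15 in treated and 18 to 35 in vehicle-treated controls, so the depth behind this value is small. With the animal-number digits as covariate it was -0.84 (edgeR adjusted p = 1). The other 9 lay between -0.27 (Vcan) and 0.43 (Thbs1) on the log2 scale. All 3 treated controls carry 4-digit animal numbers, and 6 of the 7 vehicle-treated controls carry 3-digit ones. Any difference between the number series is thus largely shared with treatment in controls.

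In LmnaADKO livers 9 of the 10 were lower with FGF21 than with vehicle, and none was called by edgeR or DESeq2. The vehicle-treated LmnaADKO livers enter both this comparison and that of the genotypes. Across all genes edgeR called 0 (0%) and DESeq2 15, and at an unadjusted p under 0.05 the count was 2 of 10 members against 6.71% of all genes. The median log2 fold change of the 10 was -0.16 against 0.00376 over all genes. Tnc had the smallest p of the 10 and ranked 16 of 23972 genes, with a log2 fold change of -0.70 ± 0.17 (SE, edgeR adjusted p = 0.537). Its levels of 2.16 to 4.19 CPM overlapped the 2.87 to 6.20 CPM under vehicle, and 5 of 8 treated livers lay below all 6 vehicle-treated ones. Among 4-digit animal numbers alone it was -0.73 (edgeR adjusted p = 0.777). Lum had a log2 fold change of -0.45 ± 0.20 (SE, edgeR adjusted p = 0.704), and 6 of 8 treated livers lay below all vehicle-treated ones. Thbs1 (-0.36), Sparc (-0.19), Dcn (-0.13), Vcan (-0.11), Bgn (-0.11) and Thbs2 (-0.10) were lower by smaller amounts. Fn1 was the 1 gene that was higher, at 986 to 1499 CPM (median 1406) and a log2 fold change of 0.24 (95% interval -0.05 to 0.53).

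The value for Spp1 under FGF21 depended on 1 liver. Of the 8 treated LmnaADKO livers, number 3 had 224 CPM, above all 6 vehicle-treated LmnaADKO livers, and 6 others lay below all of them. With all 8, the log2 fold change was -0.51 ± 0.29 (SE, edgeR adjusted p = 0.725). Without liver 3 it was -0.93 and called (edgeR adjusted p = 0.0187), Tnc was called as well (-0.81, edgeR adjusted p = 0.0299), Lum reached -0.66 (edgeR adjusted p = 0.0726), and edgeR called 61 genes in all in place of 0. Of 14 fits that each left out 1 LmnaADKO liver, this was the only 1 that called Spp1 or Tnc. Liver 3 was singled out for high values of these genes, so leaving it out lowers the treated mean by construction. These calls therefore do not show a decrease with FGF21. Liver 3 was the highest of its group for 9 of the 10 genes, all but Fn1. It also had the highest summed activated-fibroblast markers of its group (305 CPM against a group median of 111), 161 CPM of lipid-associated macrophage markers (median 69.4), the highest summed cholangiocyte markers (17.96 CPM, median 6.28) and the lowest hepatocyte markers (82580 CPM, median 118400). The part of these marker levels in its high matrix levels was not tested.

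**Figure D2:**
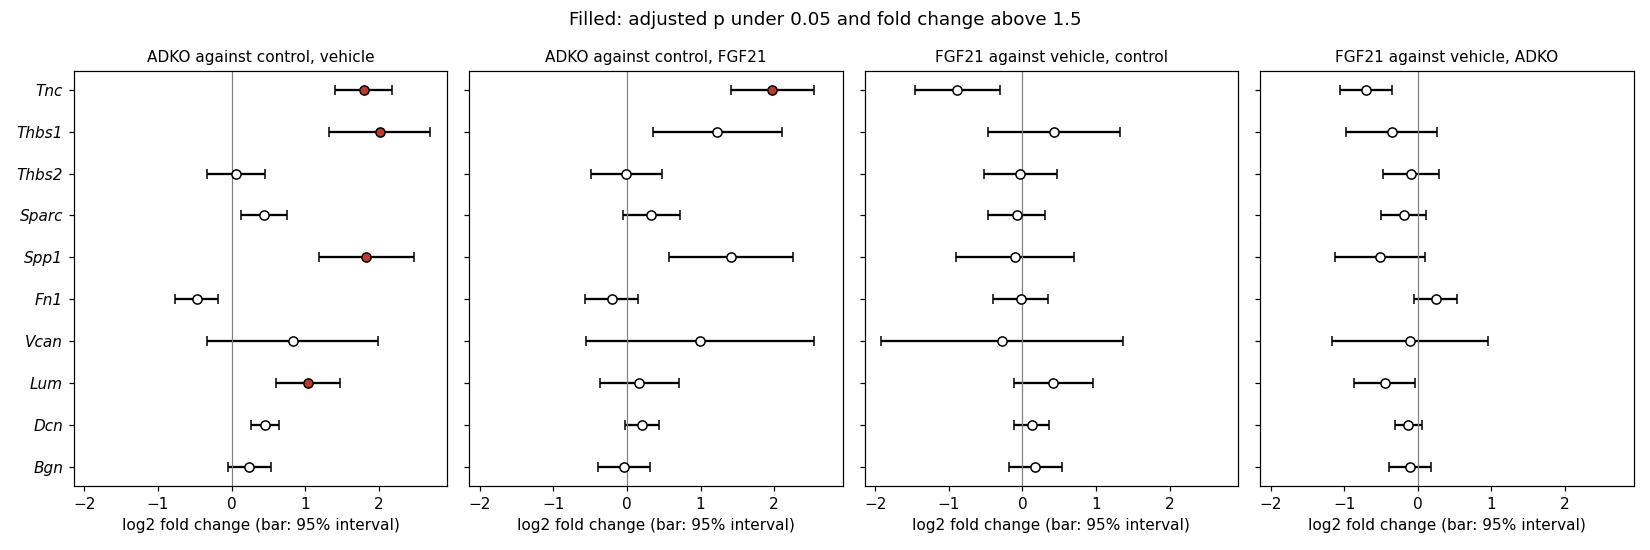
Log2 fold change of each gene with its 95% interval (edgeR) in 4 comparisons, filled where called. Filled points are Tnc, Thbs1, Spp1 and Lum for genotype under vehicle and Tnc alone under FGF21, and none for FGF21 against vehicle.

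Whether the FGF21 effect differed between genotypes was tested as an interaction. No member was called (background 0.00417%, 1 gene, edgeR; 13 genes by DESeq2), and 1 of 10 had an unadjusted p under 0.05, against 4.86% of all genes. This was Lum, at -0.87 ± 0.33 (SE, edgeR adjusted p = 0.984): its level was 7.26 ± 2.05 and 9.72 ± 1.51 CPM in controls with vehicle and FGF21, and 14.9 ± 4.18 and 10.9 ± 4.19 CPM in LmnaADKO livers (SD, n = 7, 3, 6 and 8). For Tnc the interaction was 0.18 with a 95% interval of -0.48 to 0.85, beside log2 changes with FGF21 of -0.89 in controls and -0.70 in LmnaADKO livers. The interval leaves room for a difference in either direction. The interaction uses the same 3 FGF21-treated controls, so the number series enters it as well.

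FGF21-treated LmnaADKO livers were then set against vehicle-treated controls, which asks how far the treated livers stood from the untreated control level. Tnc, Thbs1 and Spp1 were called higher, 3 of 10 against a background of 4.87% of all genes (3.04% higher). Tnc had a log2 fold change of 1.09 ± 0.18, Thbs1 1.66 ± 0.32 and Spp1 1.32 ± 0.29 (SE, edgeR adjusted p = 0.000209, 0.00131 and 0.00545), and with the animal-number digits as covariate 1.11, 1.73 and 1.33, all called (0.000571, 0.00201 and 0.00932). All 8 treated LmnaADKO livers lay above all 7 vehicle-treated controls for Tnc and for Dcn, 2 of 10 against 1.33% of all genes, and 7 of 8 did for Thbs1 and Spp1. Dcn had a fold of 1.25 (edgeR adjusted p = 0.0138). Lum was 1.502-fold higher with an edgeR adjusted p of 0.0644. This comparison shares its controls with the first and its treated livers with the second.

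**Figure D3:**
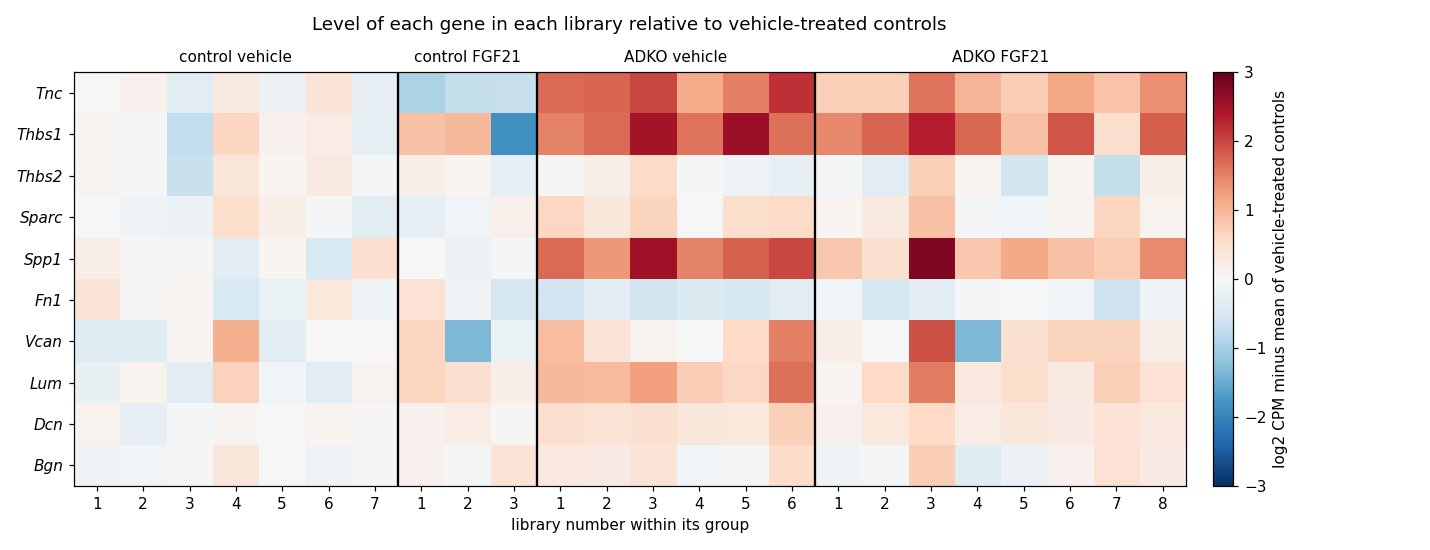
Log2 CPM of each gene in each of the 24 livers minus the mean of the vehicle-treated controls, from -3 (blue) to 3 (red), with libraries numbered within their group. Tnc, Thbs1, Spp1 and Lum are red across the vehicle-treated LmnaADKO livers, FGF21-treated LmnaADKO liver 3 is red in most rows, and the Fn1 row is mostly pale or blue.

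Within groups, the genes mostly varied together. Over 45 pairs in 24 livers, the Pearson correlation of log2 CPM deviations from the group means was above 0 for 38. Its median was 0.367 (0.513 without the 3 libraries named above). The genes of 1 liver share its library depth and tissue composition, which differ between livers. FGF21-treated LmnaADKO liver 3 was the highest of its group for 9 of the 10 genes and vehicle-treated control 4 for 6. Correlations were not recomputed without these livers, so their part in the values was not tested. Sparc and Bgn were the closest pair (r = 0.805), and Lum and Dcn, neighbours on chromosome 10, had r = 0.713. Thbs1 and Thbs2 had r = 0.691. Fn1 stood apart, with r = -0.6 to Sparc and -0.453 to Bgn. Over 12491 other genes, the gene closest to Bgn was Col1a1, the chain of type I collagen, at r = 0.927, followed by Anxa5 (0.914) and Prelp (0.908). Closest to Tnc were Myo1c (0.790), Slc35f2 (0.789) and Col5a1 (0.788), and closest to Spp1 were Slc5a1 (0.868), Col12a1 (0.814) and Zfp423 (0.808). The genes closest to Thbs1 (Samd4b 0.887, Tbc1d14 0.865 and Fxr2 0.857) fell to 0.648 to 0.703 without those 3 libraries. For Thbs2 the closest was Trip11 (0.828), for Sparc Tuba8 (0.903), for Fn1 Paxip1 (0.854), for Lum Emp1 (0.850) and for Dcn Olfml3 (0.787). For Vcan it was Apoa4 (0.819), on Vcan counts of only 0 to 20 per library.

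Other genes of the matrix were counted from fixed lists, of which 185 of 189 genes had a row. These lists too were chosen with earlier results of these data known. Of 38 other matrix glycoproteins, 8 were called higher and 1 lower between vehicle-treated LmnaADKO and control livers, with a median log2 fold change of 0.39. Over all genes, 5.12% were called higher and 3.36% lower in this comparison. Ccn2, a matricellular target of TGF-β and YAP, was 3.17 ± 1.37 and 12.1 ± 4.03 CPM in controls and LmnaADKO livers (log2 fold change 1.93). Postn, periostin, was 17.5 ± 5.01 and 34.8 ± 5.77 CPM, and Nid1 of the basement membrane was 16.1 ± 2.69 and 38.8 ± 8.92 CPM. Fbln2, an elastic fibre protein, was 2.08 ± 0.596 and 5.29 ± 1.41 CPM. Vtn, the plasma glycoprotein vitronectin that hepatocytes secrete as they do fibronectin, was the 1 called lower, from 2785 ± 351 to 1634 ± 98.2 CPM. Tnxb, a tenascin that was not called, had a log2 fold change of 0.32 (edgeR adjusted p = 0.144).

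Of 21 other proteoglycans, 3 were called higher and 1 lower, against 5.12% and 3.36% of all genes. Gpc1, a cell-surface heparan sulfate proteoglycan, went from 7.22 ± 7.02 to 57.3 ± 12.3 CPM, Omd (osteomodulin, of the family of Lum) from 0.142 ± 0.193 to 1.45 ± 0.694 CPM and Gpc6 from 0.313 ± 0.121 to 0.896 ± 0.316 CPM. Sdc2 fell from 174.8 ± 19.8 to 109 ± 17.9 CPM. Prelp, another leucine-rich proteoglycan, was not called (log2 fold change 0.07).

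Receptors of these proteins gave 2 called higher and 2 lower of 18, against 5.12% and 3.36% of all genes. Cd36, a receptor of thrombospondin 1 that also takes up fatty acids, rose from 146 ± 37.2 to 349 ± 25.7 CPM, and Itgb8, whose integrin activates latent TGF-β, from 0.335 ± 0.123 to 0.762 ± 0.291 CPM. Lrp1, which takes up thrombospondins, fell from 551 ± 68.6 to 334 ± 20.5 CPM, and Egfr from 81.5 ± 26.6 to 41.1 ± 17.5 CPM. Cd44, the osteopontin and hyaluronan receptor, and Itgav, an osteopontin and fibronectin receptor, were not called (log2 fold changes 0.27 and 0.43). Of 24 enzymes of chondroitin and dermatan sulfate synthesis, 2 were called, both higher, a share near the 8.48% of all genes called in either direction. Ugdh, which makes UDP-glucuronic acid, went from 78.6 ± 21.2 to 192 ± 8.90 CPM, and the chondroitin sulfotransferase Chst11 from 0.366 ± 0.223 to 0.890 ± 0.154 CPM. Dse, which makes dermatan sulfate, had a log2 fold change of 0.04. Of 12 genes of versican proteases and hyaluronan, 2 were called higher, against 5.12% of all genes. They were Adamts4 (log2 fold change 1.46) and the hyaluronan link protein Hapln1 (mean 0.00648 CPM in controls and 0.255 in LmnaADKO livers).

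**Figure D4:**
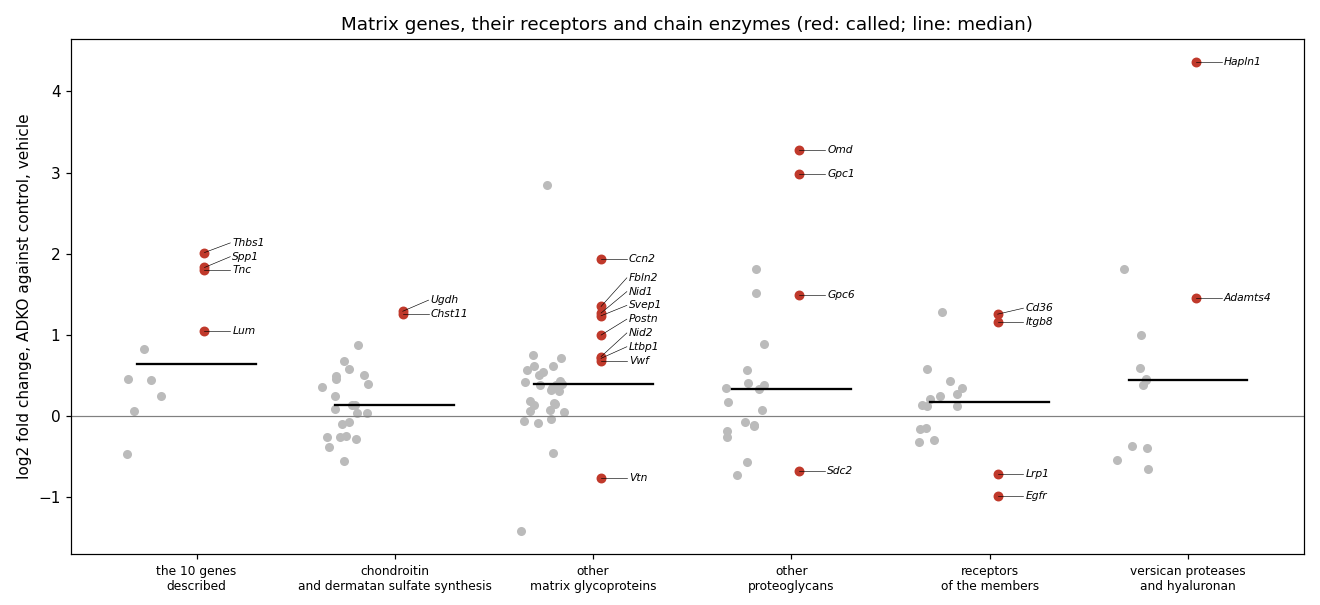
Log2 fold change between vehicle-treated LmnaADKO and control livers (edgeR) for the 10 genes and for 5 other lists, each gene a point, red where called and named, with the median of each list as a line. Most called genes are higher and 4 are lower (Vtn, Sdc2, Lrp1 and Egfr), and the Hapln1 value comes from controls near 0 counts.

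Between the genotypes under FGF21, Postn, Nid1, Gpc1, Cd36 and Ugdh were called higher and none of these lists' genes lower, where 2.88% of all genes were called against 8.48% under vehicle. The interaction called none of the lists' genes with edgeR. FGF21 against vehicle gave 0 calls in any of the 5 lists in either genotype with edgeR. Medians of the lists in LmnaADKO livers were -0.11, -0.05, -0.09, -0.05 and -0.26 for glycoproteins, proteoglycans, receptors, sulfate synthesis and proteases.

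Of the cell-type markers, those of activated fibroblasts and lipid-associated macrophages were called most often for genotype under vehicle. Over all genes, 5.12% were called higher and 3.36% lower. Of 8 activated-fibroblast markers, 4 were called higher: Tagln (log2 fold change 1.36), the collagen genes Col1a2 (1.10) and Col3a1 (1.08), and Acta2 (0.73), the smooth muscle actin of myofibroblasts. Col1a1 had a log2 fold change of 1.46 and was not called (edgeR adjusted p = 0.0576). The sum of the 8 went from 60.3 to 151 CPM in controls to 104 to 245 CPM in LmnaADKO livers. Of 6 lipid-associated macrophage markers, 5 were called higher (sums 21.8 to 70.7 and 63.7 to 180.5 CPM), and Trem2 was not. Of 8 stellate cell markers, 1 was called (Lrat), and their sums overlapped, at 156 to 224.5 and 155 to 217 CPM. Of 6 Kupffer cell markers none was called and all 6 were lower, with sums of 511 to 728 and 319 to 602 CPM. Of 6 cholangiocyte markers 1 was called (Cftr), with sums of 3.94 to 8.01 and 7.21 to 10.4 CPM. Cftr averaged 0.0135 ± 0.0231 CPM in controls, near 0 counts, and 0.1465 ± 0.116 CPM in LmnaADKO livers. Of the other lists, 2 of 8 portal fibroblast or mesothelial markers (Entpd2 and Cd34), 1 of 6 endothelial markers (Lyve1) and 1 of 4 adipocyte markers (Cidea) were called higher, 1 of 5 hepatocyte markers (Fgb) lower and 0 of 5 platelet markers. The part of any of these cell types in the levels of Tnc, Thbs1, Spp1 and Lum was not tested.

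In the other comparisons the markers were as follows. Between the genotypes under FGF21, where Tnc was called, 1 of 8 activated-fibroblast markers was called higher (Tagln, log2 fold change 0.95). So were 1 of 6 lipid-associated macrophage (Cd9, 1.14), 1 of 6 endothelial (Lyve1, 1.49) and 1 of 4 adipocyte markers (Cidea). Called lower was 1 of 8 portal fibroblast or mesothelial markers (Thy1, -0.73). Only 2 of the 6 endothelial and 1 of the 4 adipocyte markers were higher at all. Over all genes, 1.61% were called higher and 1.26% lower in that comparison. Between FGF21-treated LmnaADKO livers and vehicle-treated controls, Tnc, Thbs1 and Spp1 were called. Of the markers, 2 of 8 activated-fibroblast (Tagln and Acta2) and 2 of 6 lipid-associated macrophage markers (Cd9 and Cd63) were called higher there. So were 3 of 5 platelet markers (Pf4, Gp1bb and Ppbp, log2 fold changes 1.31, 3.10 and 1.92). The same held for 1 of 6 cholangiocyte (Cftr, near 0 counts in those controls), 1 of 6 endothelial (Lyve1) and 1 of 4 adipocyte markers (Cidea). No marker was called lower. Over all genes, 3.04% were called higher there. Gp1bb averaged 0.0196 ± 0.0361 CPM in those controls, near 0 counts, and 0.227 ± 0.260 CPM in the treated livers. Ppbp averaged 0.528 ± 0.328 and 2.04 ± 2.46 CPM (SD, n = 7 and 8). Platelets also store and release thrombospondin 1. Under FGF21 against vehicle no marker was called in either genotype by edgeR, but all 5 platelet markers were higher in FGF21-treated LmnaADKO livers, with a median log2 fold change of 1.15. Their sums were 3.70 to 4.44 CPM with vehicle and 4.52 to 18.3 CPM with FGF21, without overlap, and 3.43 to 5.49 CPM in vehicle-treated controls. Thbs1 had a log2 fold change of -0.36 in that comparison. The highest platelet sum among the FGF21-treated LmnaADKO livers, 18.3 CPM, came from liver 2, and the next was 8.95 CPM in liver 4. Liver 2 had 3.82 CPM of Thbs1, and liver 3, with the highest Thbs1 (5.89 CPM), had the lowest platelet sum of its group. The part of platelets in the level of Thbs1 was not tested.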

How the data were processed

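Liver RNA was sequenced as paired ends in 24 mice. The deposited table holds whole-number counts per Ensembl gene, from which the authors removed genes with 0 counts in all samples. The submitters' processing notes name cutadapt 4.8, FastQC 0.11.8, STAR 2.7.8a, RSEM 1.3.3 and GRCm38, with no role or order, and the study's methods name Ensembl 102. If RSEM made the values, they are rounded estimates, which is not stated. Names, positions and exon lengths came from GENCODE M21 (GRCm38), which located 23926 of 23972 genes.

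All 24 libraries entered 1 fit per gene in edgeR 4.0.16 (R 4.3.3; TMM scaling, robust quasi-likelihood, no filter on low counts), with 6 contrasts of the 4 groups and Benjamini-Hochberg adjustment over all genes. A gene was called at an adjusted p under 0.05 and a fold change above 1.5, the limits of the study's methods, which used DESeq2. DESeq2 1.42.0, DESeq2 size factors, a filter on low counts, the animal-number digits, the length slope and leaving out each replicate were alternatives. CPM used TMM library sizes, log2 CPM a prior count of 2, and CPM per kb the union exon length. Standard errors are the absolute log2 fold change over the square root of F. Depth was 19863304 to 21510054 counts per library, where 3 counts were taken as the floor. No 2 libraries of a group agreed within sampling noise (chi-square per degree of freedom 14.1 to 196 over 67 pairs). The edgeR script was run on simulated counts with known fold changes before use. P-values measure the spread between these livers only.

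The 10 genes and the lists were chosen with earlier results of these data known. All 10 are named, and from each list the called genes of the first comparison (the 5 with the smallest adjusted p where there were more) with 1 or 2 uncalled genes of known role, markers whose level moves with a gene described, and for each of the 10 the most alike genes among those with a mean log2 CPM above 0. Acan, Bcan, Adamts20 and Has2 had no row.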

Additional observations from a re-analysis of the deposited data

Results flagged for a closer look

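In 30 groups of 6 to 8 livers, 6 held a library that stood apart from the rest of its group on the log2 scale, by a gap over range (Dixon's ratio) above the 95% critical value, where chance gives about 1 in 20. Vehicle-treated control 4 was the highest of its group by this measure for Bgn (164 CPM, ratio 0.686), Vcan (0.414 CPM, ratio 0.664, on 9 counts) and Lum (11.5 CPM, ratio 0.574). FGF21-treated LmnaADKO liver 3 was the highest for Spp1 (224 CPM, ratio 0.593) and Lum (20.7 CPM, ratio 0.559), and the calls without it are given with the FGF21 comparison above. Vehicle-treated control 3, a library with a negative length slope, was the lowest for Thbs2 (2.54 CPM, ratio 0.594). The ratios belong to 3 libraries, and the genes of a library are not independent.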

How the results depend on the processing

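Of 1294 values of the 10 genes under alternatives, 1278 kept their direction where called and their side of the threshold, 16 passed it in addition, and 0 lost a call or reversed. Among the 1278, 51 changed sign without being called in either setting. Fn1 and Sparc passed by the adjusted p alone for genotype under vehicle, so they had no call to lose in this count. On leaving out 1 replicate, their highest edgeR adjusted p there was 0.0617 for Fn1 and 0.12 for Sparc. With the adjusted p alone, 7 members and 3623 genes were called for genotype under vehicle, and 4 members (Dcn in addition) and 2192 genes for FGF21-treated LmnaADKO against vehicle-treated controls. For genotype under FGF21, 3 members were called by DESeq2 and 2 each after edgeR's filter on low counts, among 4-digit animal numbers and with the length slope as covariate. For DESeq2, the filter and the length slope, the number of all genes called is not given here, so these counts stand without a share. For the same comparison, leaving out 1 replicate gave 1 to 3 members and 339 to 1149 genes, with 339 without FGF21-treated control 3, 416 without control 2 and 1149 without FGF21-treated LmnaADKO liver 7. The genes called there were 344 with only the groups compared, 307 among 4-digit animal numbers and 402 without the 3 libraries that fell with gene length. FGF21 in controls gave 38 genes by DESeq2 and 0 with the digits as covariate, and 3 to 26 on leaving out 1 replicate (3 without FGF21-treated control 2, 8 without FGF21-treated control 1 or vehicle-treated control 2, 3 or 7, and 26 without vehicle-treated control 6). FGF21 in LmnaADKO livers gave 15 genes by DESeq2 and 2 among 4-digit animal numbers, and leaving out 1 replicate gave 0 to 2 members and 0 to 61 genes, the highest without liver 3. The interaction gave 13 genes by DESeq2, 2 with DESeq2 size factors, 2 after the filter, 0 with the digits, 5 without the 3 libraries, 3 with the length slope and 0 to 5 on leaving out 1 replicate (0 without FGF21-treated control 1 and 5 without FGF21-treated LmnaADKO liver 7 or vehicle-treated LmnaADKO liver 1). The cause was not tested. Leaving out any 1 replicate kept Tnc, Thbs1, Spp1 and Lum called for genotype under vehicle. Sparc was called with the digits as covariate, and Lum was called for FGF21-treated LmnaADKO against vehicle-treated controls after the filter and without FGF21-treated LmnaADKO liver 1 or vehicle-treated control 4. No paired analysis was possible because the animal numbers in the labels are not shared between groups. Depth limits Vcan most, with 3 or fewer counts in 11 of 24 libraries and no value after the filter on low counts, and the 3 FGF21-treated controls limit each comparison that uses them.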
